A study of Mus musculus with 2 samples.

Results

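C2C12 is a mouse myoblast cell line, a culture of muscle precursor cells that divide until they are driven to leave the cell cycle and fuse into myotubes. Here, the 112 nuclei of the standard single-nucleus library that carried the largest share of muscle transcripts were compared with the other 1011 nuclei of that library. Nuclei were barcodes with more than 750 unique molecular identifiers (UMIs) in the kallisto matrix, of which the standard library held 1123 and both libraries together held 2458. They were ranked by the share of their STAR UMIs in 16 genes (Myog, Mymk, Mymx, Ttn, Neb, Myh3, Tnnt2, Tnnt3, Tnnt1, Actc1, Acta1, Mylpf, Myl1, Myl4, Ryr1 and Atp2a1), and the top 10% were taken as muscle gene-high nuclei. The nuclei were thus chosen by the levels of these 16 genes, so those levels are given as a description and all other genes carry the comparison.

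The study made 2 droplet libraries (Chromium v3) from C2C12 cells harvested at 90% confluence, with no differentiation treatment named in the labels or methods. Nuclei of both libraries were isolated with detergent and fixed in methanol. One library was standard and captured polyadenylated RNA. In the other, nuclei were first treated with yeast poly(A) polymerase, which adds poly(A) tails to RNA in place. Each library stands alone, without a replicate, so no p-value or standard error is given. Intervals are 95% intervals for counting error only, and nuclei vary by more than counting error. No barcode was shared by the nuclei of both libraries (0 of 1123).

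During early differentiation, the transcription factor myogenin (Myog) acts with MyoD and MEF2 proteins to switch on contractile genes, while cyclin-dependent kinase inhibitors such as p21 (Cdkn1a) hold cells out of the cell cycle. Myomaker (Mymk) and myomixer (Mymx) carry out membrane fusion. Sarcomere proteins then assemble, beginning with embryonic isoforms such as the embryonic myosin heavy chain Myh3, around the giant spring protein titin (Ttn).

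One noncoding gene, Lincmd1, was among the genes with the highest ratio in the muscle gene-high nuclei and is described below. Lincmd1 is a muscle long noncoding RNA. Its gene (GRCm39, chr1:20740106-20754522, plus strand) contains the hairpins of 2 muscle microRNAs, Mir206 (chr1:20749234-20749306) and Mir133b (chr1:20752993-20753111). Their mature 3p arms are shown to identify the locus, as given by RefSeq on GRCm38.p6, with the seed (bases 2 to 8) in capitals.
mmu-miR-206-3p: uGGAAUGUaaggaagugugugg
mmu-miR-133b-3p: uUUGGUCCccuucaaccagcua
The seeds differ. Both hairpin genes had 0 UMIs in the nuclei of the standard library in both matrices, so the UMIs counted for Lincmd1 were not assigned to the microRNA genes.

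The promoters of titin, of Lincmd1 and of Pdlim3, the other gene with the highest ratio, are shown because titin carried most of the ranking and the other 2 had the highest ratios outside it. Each spans 250 bases before to 49 bases after the start site in RefSeq on GRCm38.p6, for Ttn chr2:76982498-76982797 on the minus strand, for Lincmd1 chr1:20669632-20669931 on the plus strand and for Pdlim3 chr8:45885237-45885536 on the plus strand. Capitals mark 3 motifs searched on both strands. These were the E-boxes CAGCTG and CAGGTG, the kind of site that MyoD and myogenin bind, and a MEF2-like element, CTA and TAG separated by any 4 bases.
Ttn: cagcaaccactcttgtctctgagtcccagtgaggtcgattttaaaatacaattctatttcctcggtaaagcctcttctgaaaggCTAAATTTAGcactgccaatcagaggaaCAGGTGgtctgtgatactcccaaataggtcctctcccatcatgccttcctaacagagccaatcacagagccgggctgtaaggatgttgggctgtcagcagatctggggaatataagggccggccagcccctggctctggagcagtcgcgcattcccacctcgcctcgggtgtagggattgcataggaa
Lincmd1: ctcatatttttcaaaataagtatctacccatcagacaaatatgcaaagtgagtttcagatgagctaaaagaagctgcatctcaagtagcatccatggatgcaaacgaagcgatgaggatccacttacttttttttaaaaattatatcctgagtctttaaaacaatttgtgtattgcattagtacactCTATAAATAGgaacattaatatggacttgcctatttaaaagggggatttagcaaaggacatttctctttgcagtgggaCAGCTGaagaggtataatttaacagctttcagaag
Pdlim3: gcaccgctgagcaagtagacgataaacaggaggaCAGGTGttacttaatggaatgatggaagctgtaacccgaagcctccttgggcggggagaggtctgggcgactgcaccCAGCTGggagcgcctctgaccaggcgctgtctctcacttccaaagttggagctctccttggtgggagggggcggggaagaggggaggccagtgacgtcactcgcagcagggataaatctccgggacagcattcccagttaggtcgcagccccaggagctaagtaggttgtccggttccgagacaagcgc
The Ttn window held 1 MEF2-like and 1 CAGGTG match, the Lincmd1 window 1 MEF2-like and 1 CAGCTG match, and the Pdlim3 window 1 match to each E-box. At least 1 of the 3 motifs was in 35.2% of all 27025 promoters of the table, in 27.9% of the 4476 promoters of tested genes, and in 7 of the 12 rule genes with an entry. Among the genes described below as at least 2-fold higher it was in 17 of 36 with an entry (47.2%), and among those at least 2-fold lower in 13 of 40 (32.5%). The window of Myog held none of the 3. A match is a description of the letters and not evidence of binding.

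The rule itself separated a skewed tail. The 16 genes held 5663 UMIs in the muscle gene-high nuclei, which was 0.983% of their UMIs. In the rest they held 2945 UMIs, or 0.0520%, so the 112 nuclei held 65.8% of all UMIs of the 16 genes. The share per muscle gene-high nucleus ran from 0.224% through a median of 0.48% to 5.85%, the last being 227 of 3878 UMIs. There was no gap at the threshold. The last nucleus inside had 11 of 4918 UMIs (0.224%), and the first outside had 9 of 4033 (0.223%). Among the rest, 231 nuclei had no UMI of the 16 genes. Depth was similar, with medians of 4444.5 STAR UMIs per muscle gene-high nucleus and 4492 in the rest, and no muscle gene-high nucleus reached 5% mitochondrially encoded UMIs (0 of 112). In 226358 barcodes with 1 to 100 kallisto UMIs, which are too shallow to be called nuclei, the 16 genes took 0.0738% of UMIs. This was near the 0.0660% of the rest in the same matrix and below the 1.62% of the muscle gene-high nuclei.

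**Figure D1:**
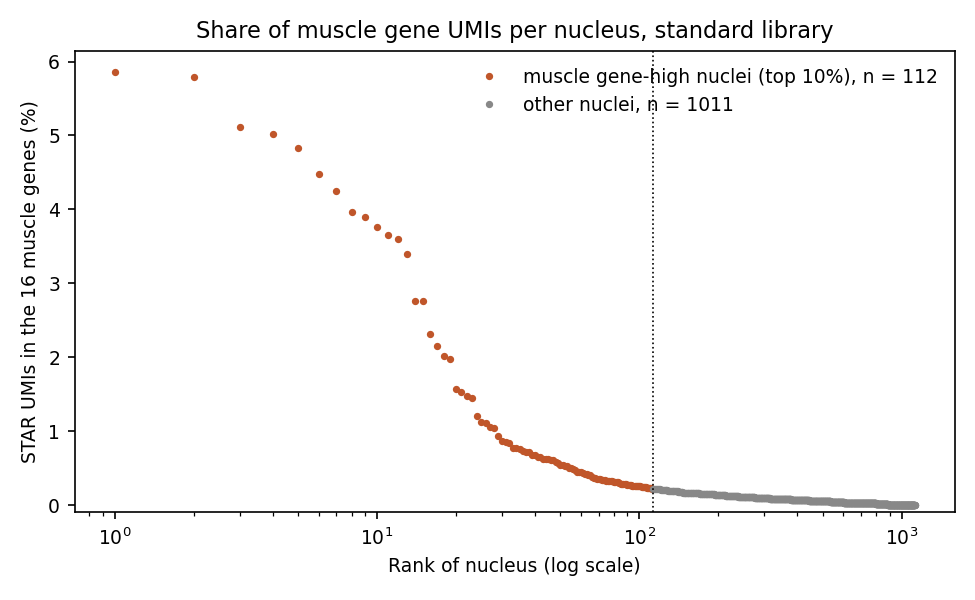
Each point is a nucleus of the standard library, placed by its rank (x axis, log scale) and by the percentage of its STAR UMIs in the 16 rule genes (y axis); the dotted line is the cut between the 112 muscle gene-high nuclei and the other 1011. The curve falls from 5.85% at the first nucleus to 0.224% at the cut without a step there.

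Titin gave most of the UMIs that ranked the nuclei. Ttn gave 79.6% of the rule UMIs in the muscle gene-high nuclei (4507 UMIs, from 3 to 202 per nucleus with a median of 20) and 62.1% in the rest (1828 UMIs, from 0 to 38 per nucleus with a median of 1). All 112 muscle gene-high nuclei and 583 of the rest had a Ttn UMI, and in 8 muscle gene-high nuclei every rule UMI was Ttn. Myog and Myh3 were found mainly at the top of the ranking. The 28 top-ranked nuclei had shares from 1.04% to 5.85%, and no other nucleus exceeded 1%. Myog had 11 UMIs in 9 muscle gene-high nuclei, 10 of them in the 28 top-ranked nuclei, against 5 UMIs in the rest. Myh3 had 155 UMIs, 153 of them in 20 of the top 28 nuclei, against 10 UMIs in 10 nuclei of the rest. Mymk had 18 UMIs, 14 of them in the top 28 nuclei, against 8 in the rest, and Mymx had 1 UMI in each group. The label thus rests mainly on titin, which gave most of the rule UMIs, while Myog and Myh3 were found in a minority of the 112, mainly the top 28.

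To see whether the 16 genes were high in the same nuclei, each gene was measured in nuclei ranked by the other 15. In the standard library, 15 of the 15 genes with a ratio were at least 2-fold higher in the top 10% than in the rest, with a median log2 ratio of 3.83. Under the same rankings 0.768% to 0.982% of the genes outside the rule with at least 200 UMIs were. Most rule genes held fewer UMIs than that, such as Myog with 10 against 6. These shares are thus at an unlike minimum and are no matched background. Mymx had too few UMIs for a ratio. The ratio of Myh3 was 7.26 (6.35 to 8.35) and that of nebulin (Neb), the thin filament ruler, was 5.62 (5.06 to 6.22). That of Myl1, a fast myosin light chain, was 5.02 (4.45 to 5.63). The lowest was 1.74 (1.40 to 2.07) for the troponin T gene Tnnt2. These ratios exceeded what counting error spans for every gene, and the gene's own UMIs took no part in its ranking.

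The ranking without Ttn kept 62 of the 112 nuclei. Ttn itself, which took no part in it, had 3584 UMIs in the top 10% and 2751 in the rest, a log2 ratio of 3.83 (3.76 to 3.91). The same left-out ratios were computed in 2 sets of barcodes that the rule did not use. One set was 7106 other barcodes of the standard library with at least 750 STAR UMIs. They did not pass the kallisto minimum and outnumber the nuclei that the methods say were loaded, so not all can be nuclei. Among them 15 of 15 genes were at least 2-fold higher, with a median of 3.27. Under these rankings 0.414% to 0.609% of the genes outside the rule with at least 200 UMIs were. In the 1328 nuclei of the in situ polyadenylated library with STAR counts, 14 of 14 rule genes were at least 2-fold higher, with a median of 3.54. There 2.63% to 3.20% of the genes outside the rule with at least 200 UMIs were. Both shares have the same limit as in the standard library, since most rule genes held fewer UMIs.

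**Figure D2:**
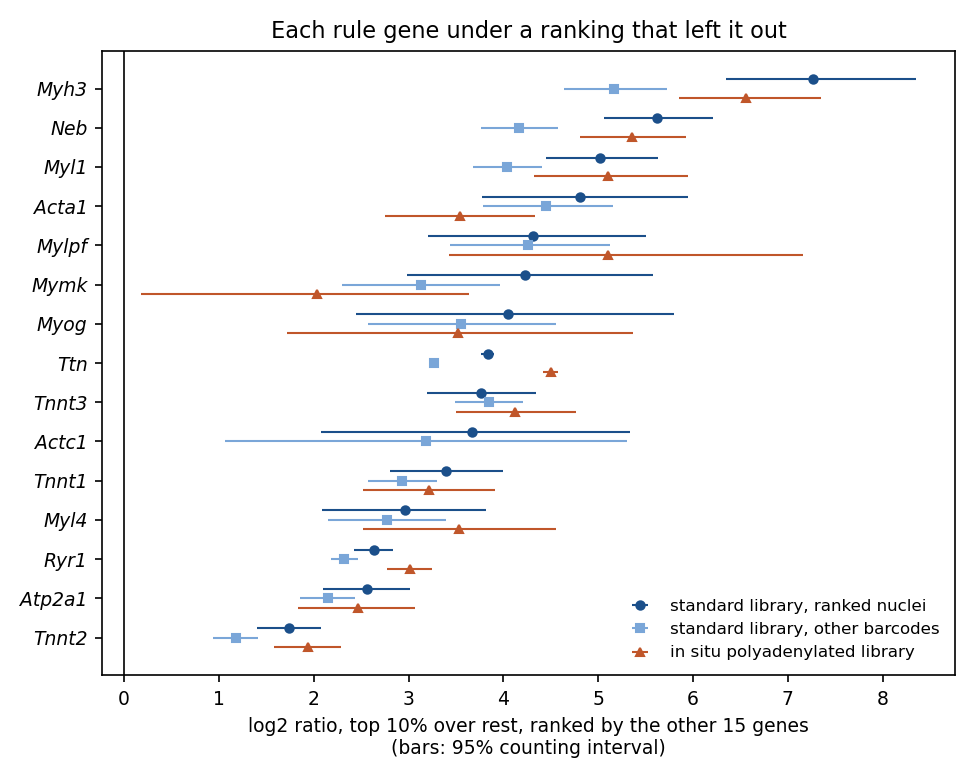
Log2 ratio (x axis) of each rule gene (y axis) in the top 10% over the rest, ranked by the other 15 genes. Of the 3 sets, the other barcodes of the standard library cannot all be nuclei. Bars are 95% counting intervals, and genes are ordered by the standard library. Myh3 lies highest in the standard library (7.26) and Tnnt2 lowest in all 3 sets, and all points lie to the right of 0.

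Outside the 16 genes, 5599 genes had at least 200 UMIs in both groups together. The UMIs of each gene were summed over nuclei and divided by the UMIs outside the 16 genes, and the log2 ratio of muscle gene-high nuclei over the rest was used. With 1 library, a gene was counted when it was past 2-fold. Of the tested genes, 55 (0.982%) were at least 2-fold higher and 49 (0.875%) at least 2-fold lower. The minimum was set on both groups together. Several of the highest genes, Pdlim3 among them, thus reached it only through their UMIs in the muscle gene-high nuclei. The higher count is therefore no test, and the same limit holds for the counts of list genes below. The genes at least 2-fold higher were 50 protein-coding and 5 long noncoding RNA genes. The median log2 ratio of all tested genes was -0.10, so list values are also given relative to this median. The kallisto counts of the same nuclei, in which 778 genes reached the minimum, gave 3 higher and 19 lower genes, and ranking without Ttn gave 43 and 29.

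Pdlim3, which encodes a protein of the Z-disc, the anchor of thin filaments, had 110 UMIs in the muscle gene-high nuclei and 92 in the rest, an 11.9-fold difference (log2 ratio 3.57, 3.16 to 3.98). It was seen in 47 of 112 against 69 of 1011 nuclei. Lincmd1 had 504 UMIs in 80 muscle gene-high nuclei and 423 UMIs in 263 of the rest, an 11.8-fold difference (3.56, 3.37 to 3.75). The kallisto matrix counted 7 and 14 UMIs for Lincmd1 and 4 and 4 for Pdlim3, so both levels rest on the STAR matrix. In 4 successive groups of 28 muscle gene-high nuclei Lincmd1 was at 2397, 841, 202 and 274 CPM (UMIs scaled to a common total outside the 16 genes). It was at 48.2 CPM in nuclei without a rule UMI. Lincmd1 was seen in 27 of the top 28 nuclei.

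Next in order were several muscle genes and others. Tnnc1, the slow and cardiac troponin C, had 89 against 139 UMIs (2.67, 2.27 to 3.06). Sntb1, a syntrophin of the dystrophin complex, had 93 against 155 UMIs (2.57, 2.19 to 2.95). These were seen in 42 and 43 muscle gene-high nuclei, and no nucleus had more than 8 UMIs of either. Dlg2, a scaffold protein best known from synapses, had a ratio of 2.33 (1.94 to 2.71).

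Ccdc141 had 178 against 377 UMIs (2.23, 1.96 to 2.49). It lies 27342 bases upstream of Ttn on the same strand, and the part of this position in its ratio was not tested. Dysferlin (Dysf), a membrane repair protein, had 1.79 (1.36 to 2.21), the same ratio as Actn3, the fast fibre alpha-actinin (1.37 to 2.19). The calcium channel subunit Cacnb1 had 1.39 (0.98 to 1.79). Sarcalumenin (Srl), which binds calcium in the sarcoplasmic reticulum, had 1.38 (1.05 to 1.71).

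Several of the 20 highest genes are better known outside muscle. Nrxn3, a neurexin, had 1.79 (1.45 to 2.13), and Napb, a fusion factor of vesicles, had the same ratio (1.31 to 2.26). Ccdc88c had 1.84 (1.37 to 2.30), the kinase gene Dclk1 had 1.54 (1.35 to 1.73), and Cd200, a membrane glycoprotein, had 1.49 (1.06 to 1.90). Olfm1 had 1.45 (0.95 to 1.93), the actin regulator Enah had 1.41 (1.08 to 1.73) and the kinase gene Dapk2 had 1.36 (0.95 to 1.76). Their roles in these nuclei were not measured.

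**Figure D3:**
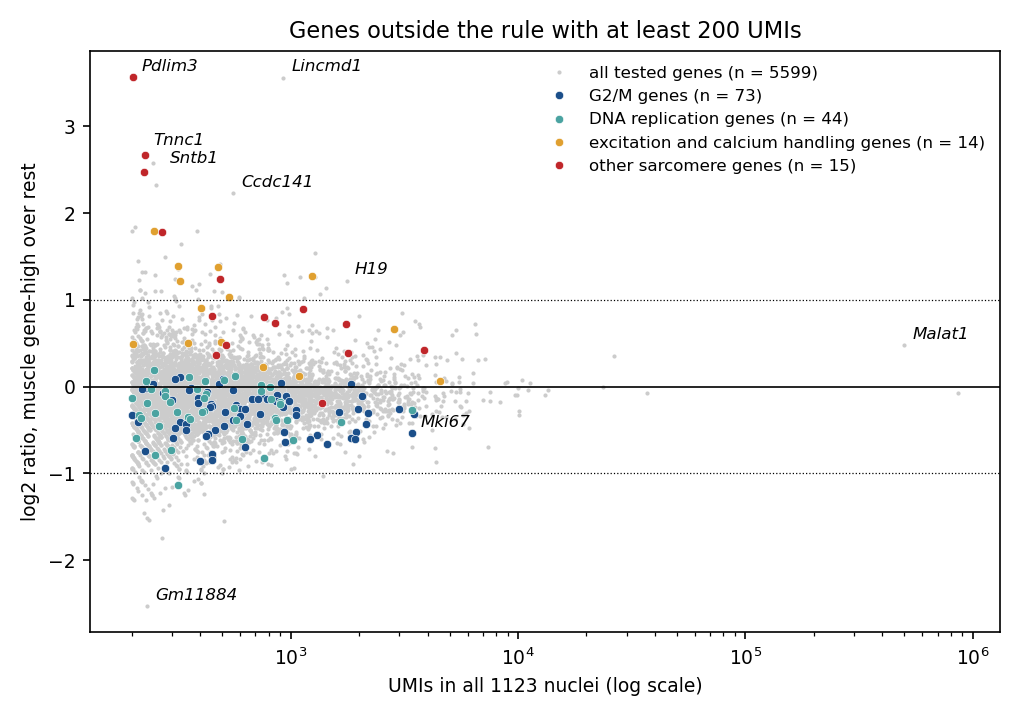
Each point is a gene outside the rule with at least 200 UMIs, placed by its UMIs in all 1123 nuclei (x axis, log scale) and its log2 ratio, muscle gene-high nuclei over the rest (y axis); dotted lines mark 2-fold. Sarcomere and excitation genes lie mostly above 0, with Pdlim3 at 3.57, and most G2/M and DNA replication genes lie below 0 and within 2-fold.

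The contractile apparatus beyond the rule was described with a list of 57 other sarcomere genes. Together they took 0.452% of UMIs in the muscle gene-high nuclei and 0.229% in the rest, a log2 ratio of 0.98 (0.92 to 1.05). Per nucleus their share of all UMIs ran from 0.0826% through a median of 0.361% to 2.24% in the muscle gene-high nuclei, and from 0% through 0.215% to 0.678% in the rest, so the groups overlapped. Of the 15 with at least 200 UMIs, 14 were above 0 against 36.2% of all tested genes, and 5 were at least 2-fold higher, against 0.982%. Their median log2 ratio was 0.81, against -0.10 over all tested genes. They included Pdlim3, Tnnc1, Actn3 and Trim55, a ubiquitin ligase of the sarcomere (1.24, 0.90 to 1.57). The intermediate filament gene desmin (Des) had 249 against 1503 UMIs (0.72, 0.52 to 0.91) and tropomyosin (Tpm1) had 208 against 1572 (0.39, 0.18 to 0.60). Both were also common in the rest, with a UMI in 665 and 721 of 1011 nuclei. Nexn had 0.36 (-0.08 to 0.77), and Pdlim5 at -0.19 (-0.49 to 0.09) was the 1 gene below 0.

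Of the 57 sarcomere genes 42 were under the minimum. Of these, 28 had a ratio, 28 of them above 0 and 26 at least 2-fold. The other 14, which include every gene with 0 UMIs in the muscle gene-high nuclei, had none. A gene with few UMIs got a ratio more readily when it was higher in the muscle gene-high nuclei, so these counts are no test. They also stand without the share over all genes under the minimum. The genes that follow, other than Actn2, were named after their values were seen. Myh1, an adult fast myosin heavy chain, had 65 against 8 UMIs (6.33, 5.27 to 7.60) and its neighbour and near copy Myh4 had 38 against 3 (6.97, 5.32 to 9.31), so the split of reads between both is uncertain. Lmod3, an actin nucleator of thin filaments, had 11 against 1 UMI, with a ratio of 6.77 (3.99 to 12.2). The M-band genes Myom3, Myom2 and Myom1 had 47 against 23, 45 against 27 and 21 against 28 UMIs, with ratios of 4.34, 4.05 and 2.90. The troponin I genes Tnni1 and Tnni2 had 32 against 21 and 15 against 8 UMIs (3.92 and 4.22). Actn2, an alpha-actinin of Z-discs, had 7 against 2 UMIs (5.12, 2.72 to 8.42), with 4 of the 7 in 1 nucleus.

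The excitation and calcium handling list, 37 genes for the surface membrane, its tubules and the calcium store, took 0.373% against 0.231% of UMIs, a log2 ratio of 0.69 (0.62 to 0.76). All 14 of its tested genes were above 0, against 36.2% of all tested genes, and 6 were at least 2-fold higher, against 0.982%. Their median was 0.79. Dysf, Cacnb1 and Srl were the 3 highest. Junctophilins Jph1 and Jph2, which tie the membrane to the calcium store, had 1.21 (0.79 to 1.62) and 1.03 (0.69 to 1.36), and Ryr3, a calcium release channel, had 1.28 (1.07 to 1.48). The lowest were Atp2a2 at 0.23 (-0.12 to 0.56), Speg at 0.12 (-0.18 to 0.41) and Cacna2d1 at 0.06 (-0.09 to 0.20).

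Among the nuclei of the standard library, the voltage sensor gene of excitation and contraction coupling had nearly all its UMIs in the muscle gene-high nuclei. Cacna1s, its pore subunit, had 24 UMIs in 13 muscle gene-high nuclei and 1 UMI in the rest, a ratio of 7.90 (5.28 to 13.3), and 21 of the 24 lay in the top 28. This near absence from the rest did not recur in the barcodes that the rule did not use. There Cacna1s had 15 against 17 UMIs (3.00, 1.90 to 4.09) in the standard library. In the in situ polyadenylated library it had 14 against 23 (2.58, 1.51 to 3.60). Subunits of the muscle acetylcholine receptor differed. Chrng, the fetal gamma subunit, had 32 against 37 UMIs (3.10, 2.37 to 3.82). Chrna1 had 24 against 100 UMIs (1.25, 0.54 to 1.91) and Chrnd 14 against 60 (1.21, 0.26 to 2.07), while Chrnb1 had 15 against 126 (0.24, -0.64 to 1.02). The calcium buffer calsequestrin 2 (Casq2) had 21 against 6 UMIs (5.12, 3.76 to 6.72). Chrng, Chrnd, Chrnb1 and Casq2 were named after their values were seen.

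Genes of fusion and adhesion differed less. The list of 33 took 0.579% against 0.441% of UMIs, a log2 ratio of 0.39 (0.34 to 0.45), with a median of 0.26. Of 21 tested genes 18 were above 0, against 36.2% of all tested genes, and 2 were at least 2-fold higher, against 0.982%. The highest were Sntb1, dystrophin (Dmd, 74 against 323 UMIs, 1.18, 0.80 to 1.55) and N-cadherin (Cdh2, 0.86, 0.59 to 1.12). For Dmd, 26 of the 74 UMIs came from 1 nucleus. M-cadherin (Cdh15), the adhesion molecule of myoblasts, had 37 against 239 UMIs (0.62, 0.08 to 1.12). The lowest were Dock1 at -0.16 (-0.40 to 0.07), Neo1 at -0.63 (-1.03 to -0.26) and Adam12 at -0.75 (-1.30 to -0.24).

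Among 32 myogenic transcription factors and regulators, sum and median differed. The list took 0.850% against 0.711% of UMIs, a log2 ratio of 0.26 (0.21 to 0.30), but its gene median was 0.04, with 12 of 20 tested genes above 0, against 36.2% of all tested genes. Mef2a had 258 against 1167 UMIs (1.13, 0.93 to 1.33), Tead4, a factor downstream of MyoD, had 88 against 410 (1.09, 0.74 to 1.43), and the splicing factor Rbm20, which acts on titin, had 235 against 1115 (1.06, 0.85 to 1.27). These were the 3 genes at least 2-fold higher, against 0.982% of all tested genes. The lowest were Pax3 at -0.31 (-1.01 to 0.32), Mbnl1 at -0.34 (-0.52 to -0.16) and Nfix at -0.39 (-0.70 to -0.10).

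The key factors had few UMIs in this library. Mef2c had 32 against 29 UMIs (3.45, 2.68 to 4.23), 26 of the 32 in 9 of the top 28 nuclei. MyoD (Myod1) had 8 against 52 UMIs (0.61, -0.68 to 1.69) and Myf5 4 against 34 (0.22, -1.73 to 1.71), so no difference was detectable for either at the depth of these nuclei. In the barcodes that the rule did not use, Myod1 had 28 against 152 UMIs (0.74, 0.11 to 1.33) in the standard library and 15 against 39 (1.92, 0.95 to 2.81) in the in situ polyadenylated library. Pax7, the factor of muscle stem cells, had 17 against 49 UMIs (1.78, 0.89 to 2.60). Unlike Mef2c and Myog, Pax7 had 1 UMI in the top 28 nuclei and 6, 3 and 7 in the next groups of 28. Of the inhibitors of differentiation, Id1 had 19 against 220 UMIs (-0.22, -0.98 to 0.45) and Id3 10 against 118 (-0.25, -1.35 to 0.68). The whole list of 33 inhibitors and progenitor genes had -0.26 (-0.34 to -0.18), with 9 of 13 tested genes below 0 against 63.8% of all tested genes. Its lowest gene was Hmga2, a chromatin protein of growing cells, with 434 against 6977 UMIs (-0.70, -0.84 to -0.56), and its highest was Tgfb2 (0.84, 0.35 to 1.31).

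Genes of the cell cycle were lower. A list of 93 G2/M genes, which act as cells prepare for and pass through mitosis, took 0.857% of UMIs in the muscle gene-high nuclei and 1.07% in the rest, a log2 ratio of -0.32 (-0.36 to -0.27), or -0.22 relative to the median of all genes. Per nucleus the share of all UMIs ran from 0.0693% through a median of 0.883% to 2.08% in the muscle gene-high nuclei, and from 0.0594% through 1.07% to 2.82% in the rest. The groups thus overlapped over most of their range. In the kallisto matrix the list took 0.833% against 1.05%. Of 73 tested genes 66 were below 0, against 63.8% of all tested genes, with a median of -0.27. None reached 2-fold in either direction (0 of 73). Of all tested genes 0.982% were at least 2-fold higher and 0.875% lower, so few were to be found in a list of this size. Mki67, the proliferation marker, had 222 against 3202 UMIs (-0.54, -0.74 to -0.34). Topoisomerase Top2a had 233 against 2769 (-0.26, -0.46 to -0.07), Cenpf of the kinetochore 154 against 1827 (-0.26, -0.51 to -0.02) and the mitotic kinase Cdk1 32 against 361 (-0.19, -0.76 to 0.34). The lowest were the spindle genes Ttk at -0.85 (-1.51 to -0.26), Kif18b at -0.86 (-1.57 to -0.23) and Ndc80 at -0.94 (-1.83 to -0.17). The highest were Cep55, Birc5 and Troap at 0.11, 0.09 and 0.09, with intervals that include 0.

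DNA replication genes were lower by a similar amount. The 65 genes took 0.378% against 0.454% of UMIs, a log2 ratio of -0.26 (-0.33 to -0.20), or -0.16 relative to all genes, and 37 of 44 tested genes were below 0, against 63.8% of all tested genes. Usp1, a deubiquitinase of replication-linked repair, was the 1 gene at least 2-fold lower, against 0.875% of all (14 against 305 UMIs, -1.14, -2.02 to -0.37). Next came Pole, the leading strand polymerase, at -0.82 (-1.32 to -0.37) and the histone chaperone Chaf1b at -0.78 (-1.68 to -0.01). Pola1 of the primase complex had 118 against 1553 UMIs (-0.41, -0.69 to -0.14), and the helicase subunit Mcm3 had 7 against 119 (-0.78, -2.12 to 0.31). The list of G1 progression genes had -0.19 (-0.31 to -0.07), but -0.09 (-0.21 to 0.03) relative to all genes, with cyclin D1 (Ccnd1) at -0.39 (-0.79 to -0.01) and E2f7 at -0.84 (-1.57 to -0.19).

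Genes of cell cycle exit showed no common direction. The list of 29 had a log2 ratio of 0.02 (-0.08 to 0.13), or 0.12 (0.02 to 0.23) relative to all genes, with 7 of 15 tested genes above 0, against 36.2% of all tested genes, and 8 below. Cdkn1a (p21) had 26 against 198 UMIs (0.38, -0.27 to 0.98), Cdkn1b (p27) 20 against 276 (-0.48, -1.21 to 0.18) and Cdkn1c (p57) 0 against 4. The retinoblastoma gene Rb1 had 58 against 470 (0.29, -0.13 to 0.69) and cyclin D3 (Ccnd3), the cyclin D of differentiating muscle, 67 against 525 (0.34, -0.05 to 0.71). Each of these intervals includes 0. The highest was Gadd45a, a stress-induced growth arrest gene, at 0.93 (0.47 to 1.36), and the lowest Gas1 at -0.82 (-1.84 to 0.06).

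The lowest G2/M level was in the 28 top-ranked nuclei. G2/M genes took 0.620% of UMIs outside the rule genes there, then 0.907%, 1.01% and 0.875% in the next groups of 28, against 1.06% to 1.08% in 3 groups of 260 nuclei of the rest and 1.07% in nuclei without a rule UMI. The top 28 nuclei against the rest gave a log2 ratio of -0.78 (-0.89 to -0.68), or -0.54 relative to the median of all genes, which was -0.24 there. DNA replication genes gave -0.50 (-0.64 to -0.36). In the same nuclei other sarcomere genes gave 1.97 (1.88 to 2.05) and excitation genes 1.35 (1.24 to 1.45). Mki67 was less graded, at 355, 352, 483 and 369 CPM in the 4 groups of muscle gene-high nuclei and 535 to 590 CPM in the groups of the rest.

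**Figure D4:**
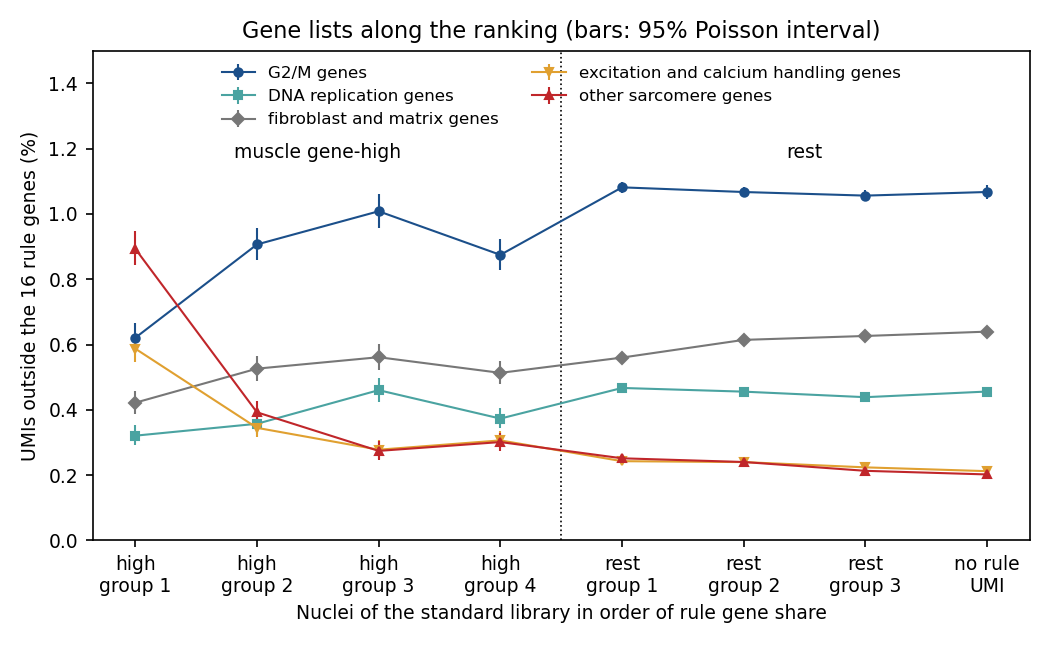
Percentage of UMIs outside the 16 rule genes taken by 5 gene lists (y axis) in 4 groups of the muscle gene-high nuclei (28 each), 3 groups of the other nuclei with a rule UMI (260 each) and 231 nuclei with none, in order of rule gene share (x axis); bars are 95% Poisson intervals. G2/M genes are lowest in the top group (0.620%) and near 1.07% throughout the rest, while other sarcomere genes run from 0.893% down to 0.202%.

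The same UMIs were also read nucleus by nucleus. A nucleus was called G2/M-high when the list took more than 1.68% of its UMIs, the 90th percentile of all nuclei. This held for 108 of 1011 nuclei of the rest (10.7%, exact binomial interval 8.85 to 12.8) and for 31 of 231 nuclei without a rule UMI (13.4%, 9.30 to 18.5). It held for 5 of 112 muscle gene-high nuclei (4.46%, 1.47 to 10.1) and for 0 of the top 28 (exact interval 0 to 12.3). Replication-high nuclei, cut at the same percentile, were 7 of 112 (6.25%, 2.55 to 12.5), 1 of the 28 and 106 of 1011 (10.5%, 8.66 to 12.5). Median depths were similar, from 4110 STAR UMIs in nuclei without a rule UMI to 4492 in the rest. A few muscle gene-high nuclei thus had G2/M shares as high as the top of the rest.

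The same ranking was applied to the barcodes that the rule did not use. Of the 7106 other barcodes of the standard library, which were shallower (median 1888 STAR UMIs in the top 710), 54 of the 55 genes at least 2-fold higher in the muscle gene-high nuclei were again above 0, against 41.1% of all genes tested there. Of these 22 were again at least 2-fold higher, against 0.597% of all. Pdlim3 had 2.79 (2.53 to 3.05) and Lincmd1 2.76 (2.62 to 2.90). The G2/M list had -0.22 (-0.25 to -0.19) and -0.73 (-0.79 to -0.67) in its 177 top-ranked barcodes, and replication genes had -0.15 and -0.54. Of the top 710 barcodes 51 were G2/M-high (7.18%, 5.39 to 9.34), and of the 177 top-ranked 4 were (2.26%, 0.62 to 5.68), against 660 of 6396 (10.3%, 9.58 to 11.1).

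In the in situ polyadenylated library, where the top 132 nuclei were compared with 1196, the muscle genes were again higher. Of 24 of the 55 genes that had 200 UMIs there, 24 were above 0, against 80% of all genes tested, and 20 were at least 2-fold higher, against 2.96%. Lincmd1 had 224 against 186 UMIs (3.56, 3.28 to 3.85). The median log2 ratio of all genes was 0.32 there, so values relative to it are compared. Other sarcomere genes had 0.92, excitation genes 0.81 and myogenic transcription factors 0.44, against 1.09, 0.79 and 0.36 in the standard library.

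The cell cycle lists were less clear in that library. G2/M genes had a log2 ratio of 0.28 (0.22 to 0.33), or -0.04 relative to all genes, and replication genes 0.16, or -0.16 relative. Of the top 132 nuclei 27 were G2/M-high (20.5%, 13.9 to 28.3), against 106 of 1196 (8.86%, 7.31 to 10.6). In its 33 top-ranked nuclei the G2/M list had -0.06 (-0.18 to 0.06), or -0.41 relative to all genes, and 3 nuclei were G2/M-high (9.09%, 1.92 to 24.3). The top nuclei of that library had fewer UMIs, with medians of 5785.5 against 6895 in its rest, and a higher share of Malat1 (log2 ratio 1.54, 1.52 to 1.57), and the part of these in the values was not tested. Mki67, which was below 0 in the standard library, had 188 against 1245 UMIs here (0.57, 0.34 to 0.79), and Top2a had 179 against 1247 (0.49, 0.26 to 0.72). Relative to all genes these were 0.25 and 0.17. G2/M-high nuclei or barcodes were thus a smaller share of the top than of the rest in both sets of the standard library. In the in situ polyadenylated library they were a larger share. In the standard library the intervals of the 112 and the 1011 nuclei overlapped.

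**Figure D5:**
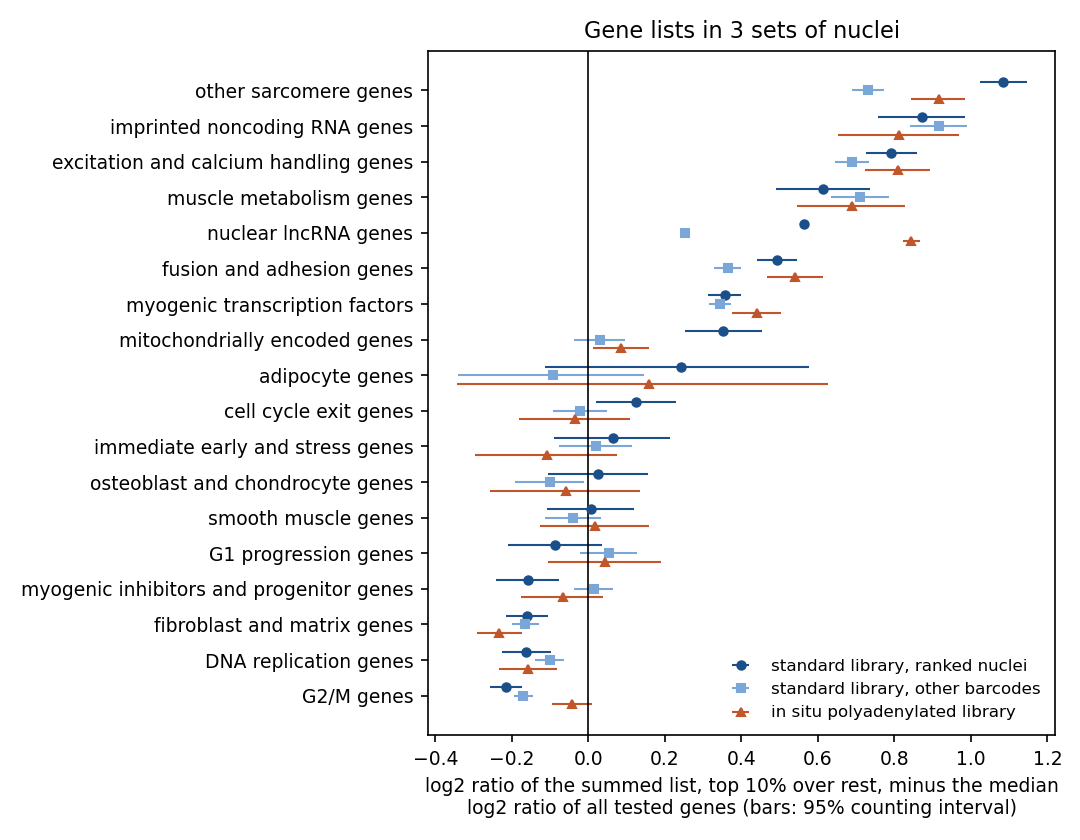
Log2 ratio of the summed UMIs of each gene list in the top 10% over the rest, minus the median log2 ratio of all tested genes (x axis). There are 18 lists (y axis) in 3 sets, of which the other barcodes of the standard library cannot all be nuclei. Bars are 95% counting intervals. The other sarcomere list is highest in the standard library (1.09) and G2/M genes lowest (-0.22), and in the in situ polyadenylated library G2/M genes lie near 0 (-0.04).

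Few genes were lower by 2-fold, and they held few UMIs. Gm11884, a long noncoding RNA gene, had 4 against 229 UMIs (-2.53, -4.42 to -1.15). The membrane metalloproteinase Mmp16 had 8 against 265 (-1.74, -2.97 to -0.74), and Pid1 17 against 494 (-1.55, -2.34 to -0.86). Mybl1, a MYB family transcription factor, had 8 against 226 (-1.51, -2.74 to -0.51). Junos, annotated opposite to Jun, had -1.36 (-2.38 to -0.50), and Nde1, a protein of the centrosome and spindle, had -1.31 (-2.46 to -0.36). The others of the 10 lowest were 1700025G04Rik (-1.54), Taz (-1.46), Rbak (-1.42) and Gda (-1.31). The lower genes recurred less than the higher ones. In the other barcodes of the standard library 35 of the 49 were below 0, against 58.9% of all genes, and 1 was again at least 2-fold lower, against 0.317%. In the in situ polyadenylated library 7 of the 49 had 200 UMIs, 3 of them were below 0, against 20% of all genes, and 0 were at least 2-fold lower, against 0.0896%. Pid1 was at 0.42 by kallisto counts, which rest on 2 and 15 UMIs.

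Markers of other cell types that the culture could hold were mostly not higher in the muscle gene-high nuclei. Fibroblast and matrix genes had a log2 ratio of -0.26 (-0.32 to -0.21), or -0.16 relative to all genes, with 15 of 17 tested genes below 0, against 63.8% of all tested genes, a median of -0.29 and the lowest value at Pdgfrb (-0.95, -1.39 to -0.53). Col1a1 had 129 against 1942 UMIs (-0.60, -0.87 to -0.34), and the highest was Thbs1 (0.47, 0.09 to 0.83). Smooth muscle genes had -0.09 (-0.21 to 0.02), though Acta2, an actin of smooth muscle that early myotubes also make, had 34 against 183 UMIs (0.88, 0.31 to 1.42). Adipocyte genes took 0.0138% against 0.0126% of UMIs (0.14, -0.21 to 0.48), with Adipoq at 0 in both groups. Osteoblast and chondrocyte genes had -0.08 (-0.21 to 0.05), with Bglap and Col10a1 at 0 in both groups.

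Noncoding RNA and metabolism also differed. H19, the imprinted noncoding RNA of fetal muscle, had 336 UMIs in 94 muscle gene-high nuclei and 1427 in 588 of the rest (1.22, 1.05 to 1.40). It was 848, 552, 563 and 433 CPM in the 4 groups of muscle gene-high nuclei and 181 CPM in nuclei without a rule UMI. Where counting ignored strand, UMIs of antisense genes such as Airn, Kcnq1ot1 and Junos cannot be told apart from those of their partners. The imprinted noncoding list had 0.77 (0.65 to 0.88), and within it Airn had 0.55 (0.37 to 0.72) and Kcnq1ot1 0.22 (-0.13 to 0.55). Malat1, a nuclear RNA, took a median of 8.70% of UMIs per muscle gene-high nucleus (3.79 to 29.7) and 7.04% per nucleus of the rest (1.45 to 25.2), with a log2 ratio of 0.48 (0.47 to 0.50). Neat1 did not differ beyond counting error (-0.00, -0.07 to 0.06), and the list of both nuclear RNAs had 0.46 (0.45 to 0.48). The muscle metabolism list of 25 had 616 against 4283 UMIs (0.51, 0.39 to 0.63). Its gene median was -0.01, against -0.10 over all tested genes. Of its 5 tested genes 2 were above 0, near the 36.2% of all tested genes. Igfbp5, a growth factor binding protein, had 332 against 2090 UMIs (0.66, 0.48 to 0.82), and Ckm, the muscle creatine kinase, 4 against 7 (2.50, 0.28 to 4.48). Mitochondrially encoded genes had 0.25 (0.15 to 0.35), immediate early and stress genes -0.04 (-0.19 to 0.11).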

How the data were processed

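The study's authors trimmed reads with cutadapt 3.4 and counted them in 2 ways (tools and build per the submitters' notes and methods). The STAR 2.7.10a matrix, against GRCm39 with GENCODE M28, holds deposited UMI counts made by the authors, whole numbers per gene and barcode, with up to 50 alignments per read kept. The kallisto 0.48.0 and bustools 0.41.0 matrix holds estimated counts (expected counts) as deposited by the authors, from pseudoalignment to transcripts, and these need not be whole. Introns and strand in the STAR counting: not given in the sources used here.

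Nuclei, ranking and groups followed the rule in the report. The muscle gene-high nuclei held 576212 STAR UMIs and the rest 5661738. The whole library held 20355795 over 8474 barcodes. UMIs were summed per group with no pseudocount. Ratios against a count of 0 used a floor of 3 UMIs, and pairs of counts at or under that floor got none. Ratio intervals are exact conditional Poisson intervals (95%), and shares have exact Clopper-Pearson intervals. The functions were tested on simulated data. Doublets were not called, but the 5% of nuclei with the most UMIs were left out in 1 alternative.

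Members and gene lists were chosen with earlier results of these data known. Named genes were the 16 rule genes, the 20 highest and 10 lowest genes, a written list of 34 genes, and the 3 highest and 3 lowest of each list. Other names were chosen after their values were seen. Some genes that this rule names are not reported here. Gene positions are from GENCODE M39 (GRCm39), which matched 54749 of 55414 gene identifiers. The other alternatives covered the matrix, the cut of the ranking, Ttn, depth, weighting, the total, the minimum of UMIs, and the barcodes and library that the rule did not use. Of the latter, 7 nuclei had no STAR counts and were left out. Software was Python 3.11.15, NumPy 2.4.6, SciPy 1.17.1, pandas 2.3.3 and matplotlib 3.10.9.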

Additional observations from a re-analysis of the deposited data

Results flagged for a closer look

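For 5 lists the summed log2 ratio of muscle gene-high nuclei over the rest was below 0 in the standard library and above 0 in the in situ polyadenylated library, with both counting intervals excluding 0, and this difference between libraries was not tested. In the standard library the values were -0.32 for G2/M genes, -0.26 for DNA replication genes, -0.26 for fibroblast and matrix genes, -0.26 for myogenic inhibitors and progenitor genes, and -0.19 for G1 progression genes. In the in situ polyadenylated library they were 0.28, 0.16, 0.09, 0.25 and 0.36. The median of all tested genes was -0.10 and 0.32 in these libraries. Relative to it, the values of the in situ polyadenylated library were -0.04, -0.16, -0.23, -0.07 and 0.04.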

How the results depend on the processing

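Each alternative changed 1 choice, and no replicate could be left out. No paired analysis was possible because the groups are nuclei of a single library. The alternatives for single named genes and for the other lists, the 28 top-ranked nuclei and the shares of G2/M-high nuclei were chosen after seeing the data. Relative to the median of all genes, other sarcomere, excitation and transcription factor lists were above 0 and G2/M and replication lists below 0 in 12 of 12 alternatives. G2/M values ran from -0.31 to -0.02 and replication values from -0.26 to -0.06. In the in situ polyadenylated library the G2/M interval included 0 (-0.04, -0.10 to 0.01). Before the median was taken off, the G2/M ratio there was 0.28.

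The 55 genes at least 2-fold higher and the 49 genes at least 2-fold lower became 3 and 19 with kallisto counts, 91 and 221 in the top 5%, and 22 and 8 in the top 20%. Thinning to 2000 UMIs gave 14 and 15. The in situ polyadenylated library gave 99 and 3 (2.96% and 0.0896% of its 3348 tested genes). A minimum of 50 UMIs gave 171 and 468, of 500 gave 15 and 2, and of 1 gave 1226 and 872. Each minimum also changed the number of genes tested, so these counts are not shares of the 5599 genes. Kallisto and thinning left fewer genes to test (778 and 2333 of 5599). The higher count was 31 against the lowest-ranked 50%. The lower count was 29 without Ttn in the ranking and 29 without the 5% of nuclei with the most UMIs. It was 26 of 8206 tested genes in the other barcodes of the standard library.

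Other sarcomere genes moved from 0.98 to 1.09 with kallisto, 1.44 in the top 5%, 0.62 in the top 20%, 0.90 without Ttn, 1.09 against the lowest-ranked 50%, 1.09 without the 5% with the most UMIs, 1.06 as a mean over nuclei, 0.68 in the other barcodes and 1.23 in the in situ polyadenylated library. Excitation genes moved from 0.69 to 0.80 with kallisto, 0.97 and 0.42 in the top 5% and 20%, 0.62 without Ttn and 1.13 in the in situ polyadenylated library. Transcription factors moved from 0.26 to 0.076 with kallisto, 0.42 and 0.17 in the top 5% and 20%, 0.20 without Ttn, 0.31 without the 5% with the most UMIs, 0.32 as a mean over nuclei, 0.30 without rRNA, mitochondrial genes and Malat1 in the total, and 0.76 in the in situ polyadenylated library. Cell cycle exit genes moved from 0.02 to 0.19 with kallisto, 0.15 when thinned and 0.28 in the in situ polyadenylated library.

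Replication genes moved from -0.26 to -0.41 and -0.15 in the top 5% and 20%, -0.17 without Ttn, -0.19 without the 5% with the most UMIs, -0.13 when thinned, -0.15 in the other barcodes and 0.16 in the in situ polyadenylated library. G2/M genes moved from -0.32 to -0.46 and -0.085 in the top 5% and 20%, -0.23 without Ttn, -0.25 without the 5% with the most UMIs, -0.22 when thinned, -0.26 as a mean over nuclei, -0.27 without rRNA, mitochondrial genes and Malat1, -0.22 in the other barcodes and 0.28 in the in situ polyadenylated library.

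Among genes past 2-fold and lists whose interval excludes 0, further signs turned in the in situ polyadenylated library for inhibitors and progenitor genes (0.25), G1 genes (0.36), matrix genes (0.087), Gm11884 (0.062), Mmp16 (0.69), Taz (0.24), Rbak (0.35), Junos (0.53) and Nde1 (0.12). They turned in the other barcodes for G1 genes (0.0036), mitochondrially encoded genes (-0.021), Taz (0.29) and Nde1 (0.066), and with kallisto for Pid1 (0.42). The cause was not tested. Counting genes under 2-fold too, 36 of 718 values of the 61 named genes changed sign, 16 of them in the in situ polyadenylated library, among them Mki67 (0.57), Top2a (0.49), Ccnd1 (0.44), Id1 (0.85) and Pola1 (0.24). Smooth muscle (0.34), osteoblast and chondrocyte (0.26) and stress genes (0.21) also had the opposite sign there, from values whose interval includes 0.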
